A study of Mus musculus with 12 samples.

Results

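The proteasome genes were taken as every row of the count tables whose symbol begins with Psm, a letter from a to g and a digit, which selected 50 of 23282 gene rows. Of these, 49 encode parts of the proteasome, its regulators or its assembly factors, and Psmc3ip, a cofactor of meiotic recombination, matches by its name alone. The rule used symbols only and no measured value. The 50 genes comprised 7 α-ring and 7 β-ring subunits of the 20S core, 3 immunoproteasome subunits, 2 tissue-specific core subunits, 6 ATPase and 11 non-ATPase subunits of the 19S particle, 7 assembly chaperones, 6 activators or inhibitors, and Psmc3ip.

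The 26S proteasome degrades proteins tagged with ubiquitin. Its 20S core is a barrel of stacked rings in which β subunits cut peptide bonds, and its 19S particle binds ubiquitin, removes it, and unfolds and threads the substrate with a ring of ATPases. Immunoproteasome subunits replace the catalytic β subunits after interferon signalling, and the PA28 activators open the core without ubiquitin. In Huntington's disease, mutant huntingtin with an expanded polyglutamine stretch accumulates in neuronal inclusions that contain ubiquitin and proteasome subunits.

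The data were RNAseq counts from 2 brain regions, striatum and cortex, of R6/2 HD mice, a transgenic line that expresses the first exon of human huntingtin with an expanded CAG repeat, and of WT littermates without the transgene. HD mice were sampled at 8 weeks, before symptoms, and at 13 weeks, after symptom onset, with 2 libraries for each region and age. WT littermates had 1 library for each region and age, so that the 12 libraries comprised 8 of HD mice and 4 of WT mice. The R6/2 line models a fragment of the protein rather than the whole gene, and the labels do not say whether same-numbered striatum and cortex came from 1 mouse. Libraries were made with a 3′ end kit that reads transcripts at their 3′ ends, so a gene's level in counts scaled to library size (CPM) does not depend on its length.

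The libraries held between 8814386 and 12091201 counts. The ribosomal RNA precursor Rn45s took 10.5% to 15.2% of counts in HD libraries and 4.32% to 5.62% in WT libraries, and CPM values below were scaled with trimmed mean of M-values (TMM) factors unless stated. Summed striatal neuron markers lay between 1385 and 7733 CPM in striatum and between 134 and 373 CPM in cortex, although Drd2, which defines a class of striatal neurons, was listed at 0 in 9 of 12 libraries. Within striatum, that sum was 7332 and 2308 CPM in HD mice at 8 weeks, 1385 and 1410 CPM in HD mice at 13 weeks, and 7110 and 7733 CPM in WT mice. In these bulk samples, fewer cells of a type and less RNA per cell cannot be told apart. The second HD striatum library at 8 weeks stood apart, with 21006 CPM of 8 oligodendrocyte markers against 3413 CPM in its replicate and with 1729 CPM of 6 thalamus and choroid plexus markers against 42.9 CPM. The second HD cortex library at 13 weeks held 3017 CPM of those thalamus and choroid plexus markers against 88.5 CPM in its replicate. Xist exceeded the Y-linked Ddx3y in 6 libraries, which were the second replicate of each HD group and both WT libraries at 13 weeks, so age and sex cannot be told apart among WT mice. Each HD group held both sexes, so sex differed in part with genotype in the comparisons of HD with WT mice at 8 weeks and at 13 weeks. The same holds for the change in HD less that in WT.

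Every one of the 50 genes had a count in each library. Their summed share of all counts was 0.366% to 0.393% in HD mice at 8 weeks, 0.449% to 0.474% in WT mice at either age, and 0.482% to 0.508% in HD mice at 13 weeks. The 3 sets of libraries did not overlap on this unscaled share, whose 95% Wilson intervals were at most 0.0092 percentage points wide and cover counting error only. With TMM factors, the summed level was 4033 to 4191 CPM in HD mice at 8 weeks, 4334 to 4866 CPM in WT mice and 4336 to 4905 CPM in HD mice at 13 weeks, so the HD libraries at 13 weeks then overlapped the WT libraries.

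Single genes of 1 particle differed widely in level. Psmd7, a 19S non-ATPase subunit that forms a dimer with the deubiquitinase Psmd14, had the highest mean of its class over the 12 libraries at 268 CPM, and Psmd6 the lowest at 44.5 CPM. In the α ring, means ran from 25.2 CPM for Psma5 to 252 CPM for Psma7. In the β ring they ran from 19.5 CPM for Psmb2 to 187 CPM for Psmb1, although all 7 subunits enter the core in equal number. Counts of different genes also depend on how reads were assigned. The 3′ ends of Psma5, Psma4 and Psmb3 are 97.2%, 98.3% and 99.2% identical to those of pseudogenes. The part of read assignment in the differences between genes was not tested. Among the ATPases, means ran from 52.3 CPM for Psmc6 to 190.3 CPM for Psmc3. Assembly chaperones, which guide the rings together and leave before the particle is complete, were lower, from 10.2 CPM for Psmg1 to 40.0 CPM for Psmg3. Among activators and inhibitors, Psme3, the nuclear PA28γ, had the highest mean at 57.7 CPM and Psme2, PA28β, the lowest at 9.29 CPM.

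The tissue-specific and immune forms were the lowest, apart from Psmb10. Psma8, the testis α subunit, had 1 to 9 counts per library, and Psmb11, the thymus β subunit, had 2 to 16 counts. Psma8 did not pass the count filter in any comparison, and Psmb11 did not pass it in the comparison of HD stages over both regions. The immunoproteasome subunits Psmb9 and Psmb8 had 2 to 24 and 24 to 76 counts per library. Psmb10, the third immunoproteasome subunit, was far higher, with 130 to 795 counts and a mean of 40.5 CPM.

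**Figure D1:**
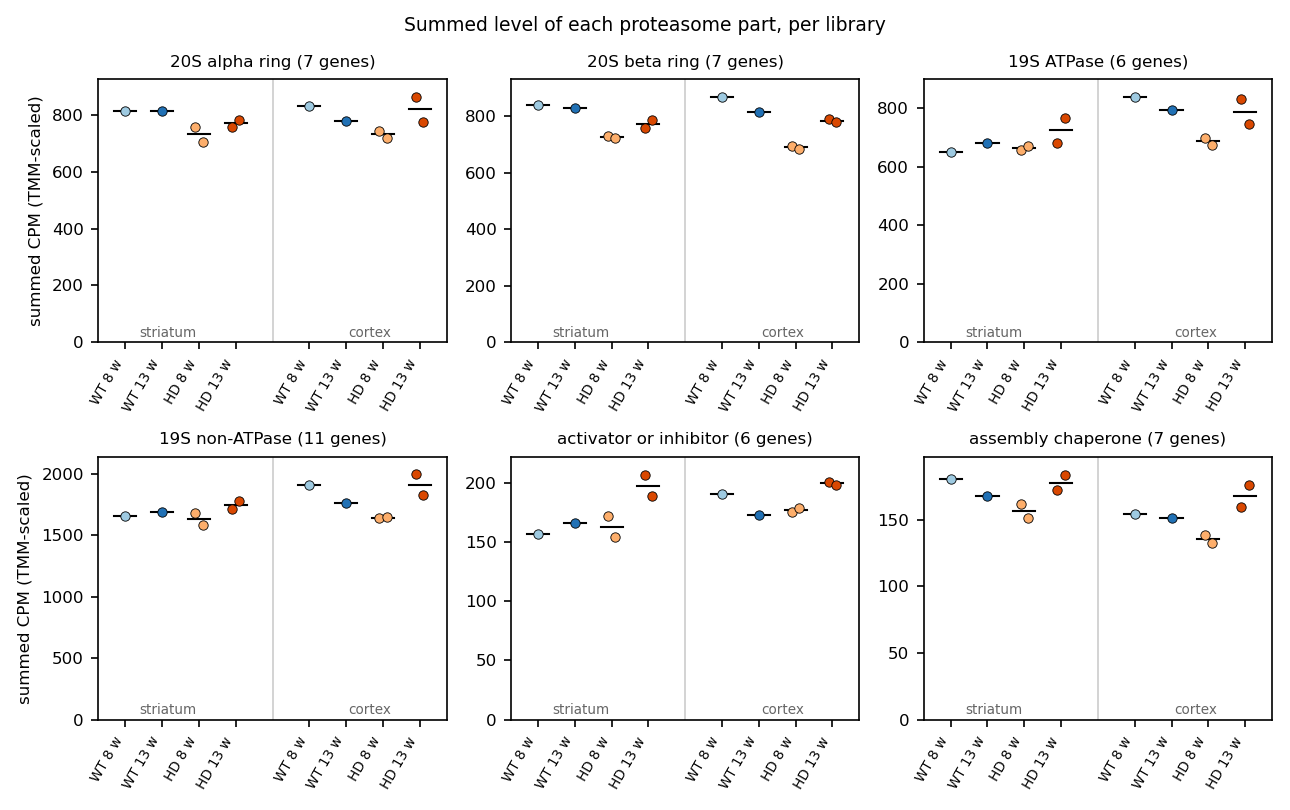
Summed TMM-scaled CPM of the genes of 6 proteasome classes in each library (y axis, from 0), by genotype and age in weeks (x axis), with striatum on the left and cortex on the right of each panel. Points are libraries and bars are group means. The HD β-ring sums at 8 weeks, 684 to 729 CPM, lie under all WT sums, 815 to 867 CPM.

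Summed by class with TMM scaling, the β ring, the catalytic ring of the core, placed the libraries in an order of genotype and stage. In HD mice at 8 weeks it summed to 729 and 722 CPM in striatum and 694 and 684 CPM in cortex. In HD mice at 13 weeks it summed to 756 and 785 CPM in striatum and 789 and 778 CPM in cortex. In WT mice it summed to 840 and 830 CPM in striatum and 867 and 815 CPM in cortex at 8 and 13 weeks. With this scaling all 4 HD libraries at 8 weeks were the lowest, the 4 at 13 weeks were intermediate, and the WT libraries were the highest. With plain totals the HD libraries at 13 weeks, 817 to 840 CPM, overlapped WT, 809 to 891 CPM. Without Rn45s in the total they lay above WT, at 937 to 982 against 853 to 931 CPM. The HD libraries at 8 weeks were the lowest under each scaling. The 19S particle did not follow that order in either region. In striatum it held 2342 and 2252 CPM in HD mice at 8 weeks and 2397 and 2547 CPM at 13 weeks. WT striatum held 2305 and 2371 CPM. In cortex it held 2342 and 2325 CPM in HD mice at 8 weeks and 2828 and 2574 CPM at 13 weeks. WT cortex held 2745 and 2557 CPM. The α ring did not follow it either, with 760 to 866 CPM in HD mice at 13 weeks and 779 to 833 CPM in WT mice. The ratio of summed 19S to summed 20S transcripts in striatum was 1.57 and 1.58 in HD mice at 8 weeks, 1.58 and 1.63 at 13 weeks, and 1.39 and 1.44 in WT mice at 8 and 13 weeks. In cortex the ratio was 1.63 and 1.65 in HD mice at 8 weeks, 1.71 and 1.65 at 13 weeks, and 1.61 and 1.60 in WT mice. All HD libraries exceeded the WT libraries of their region in this ratio, which does not depend on library scaling. With 1 WT library per age and region, no test of the sums was made.

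After symptom onset, HD mice had higher levels of 3 proteasome genes than before it, and no proteasome gene passed the test as lower. The 3 were Psmd1 and Psmd14 of the 19S particle and Psme1, the PA28α activator subunit. Across all 48 genes tested, 41 had a positive log2 fold change and the median was 0.18, against a median of 0.00 over the 13944 genes tested. Among all genes tested, 6.45% passed the test in this comparison, 1.93% higher and 4.53% lower. The test was edgeR's quasi-likelihood test over the 8 libraries of HD mice, adjusted for region, and a gene was called at a Benjamini-Hochberg adjusted p under 0.05.

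Psmd1 encodes Rpn2, a large scaffold of the 19S base, and lies in mm10 at chr1:86064387-86139151 on the plus strand. It had 235 and 230.4 CPM in HD striatum at 13 weeks and 267 and 254 CPM in HD cortex, against 186 and 169 CPM in striatum and 195 and 183 CPM in cortex at 8 weeks. All HD libraries at 13 weeks were above all HD libraries at 8 weeks, and the WT libraries, at 202 to 233 CPM, were above all HD libraries at 8 weeks and reached into the range of HD striatum at 13 weeks. The log2 fold change was 0.44 ± 0.095 (SE), with an adjusted p of 0.0252 by edgeR. Gm21972, which overlaps the 3′ end of Psmd1 on the same strand, is 100% identical to it over 231 bases and could share its reads.

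Psmd14 encodes Rpn11, the metalloprotease that removes ubiquitin chains as substrates enter the core, and lies at chr2:61711694-61800376 on the plus strand. It had 82.6 and 102 CPM in HD striatum at 13 weeks and 116 and 112 CPM in HD cortex, against 73.8 and 72.4 CPM in striatum and 77.9 and 79.6 CPM in cortex at 8 weeks. Again the HD stages did not overlap, and the gap was wider in cortex than in striatum. WT striatum, at 105 and 87.6 CPM at 8 and 13 weeks, was within the range of HD striatum at 13 weeks or above it, whereas WT cortex, at 74.8 and 77.0 CPM, was under all HD cortex libraries. The log2 fold change between HD stages was 0.45 ± 0.11 (SE), with an adjusted p of 0.0405 by edgeR.

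Psme1 lies at chr14:55578123-55581529 on the plus strand. It had 54.3 and 44.7 CPM in HD striatum at 13 weeks and 43.6 and 38.0 CPM in HD cortex, against 34.7 and 16.9 CPM in striatum and 26.8 and 25.1 CPM in cortex at 8 weeks. WT libraries held 21.0 to 26.98 CPM, so the HD libraries at 13 weeks were the highest of the 12, and those at 8 weeks lay on both sides of WT. The log2 fold change between HD stages was 0.81 ± 0.21 (SE), with an adjusted p of 0.0456 by edgeR. The lowest value, 16.9 CPM, came from the striatum library with many oligodendrocyte transcripts. Without that library, the value was 0.61 with an adjusted p of 0.0177. Emc9, which overlaps Psme1 on the other strand, had a log2 fold change of 0.25 with an adjusted p of 0.405. A pseudogene with a 3′ end 95.5% identical to that of Psme1 could share its reads.

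For each of these 3 genes, an exact two-sided permutation test of stage within region gave p = 0.0556, the smallest value that its 36 arrangements allow. The genes were taken for this test because they were called in the same libraries. Their HD stages did not overlap within a region, which fixes that value, so it adds no support to the calls. The calls depended on single libraries. Psmd1 and Psme1 missed the threshold without any one HD library at 13 weeks or any one HD cortex library at 8 weeks, and Psmd14 missed it without either cortex library of either age or the second striatum library at 13 weeks, with log2 fold changes between 0.40 and 0.99 throughout. Psmd14 also missed it by voom with a random block (adjusted p = 0.0532).

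**Figure D2:**
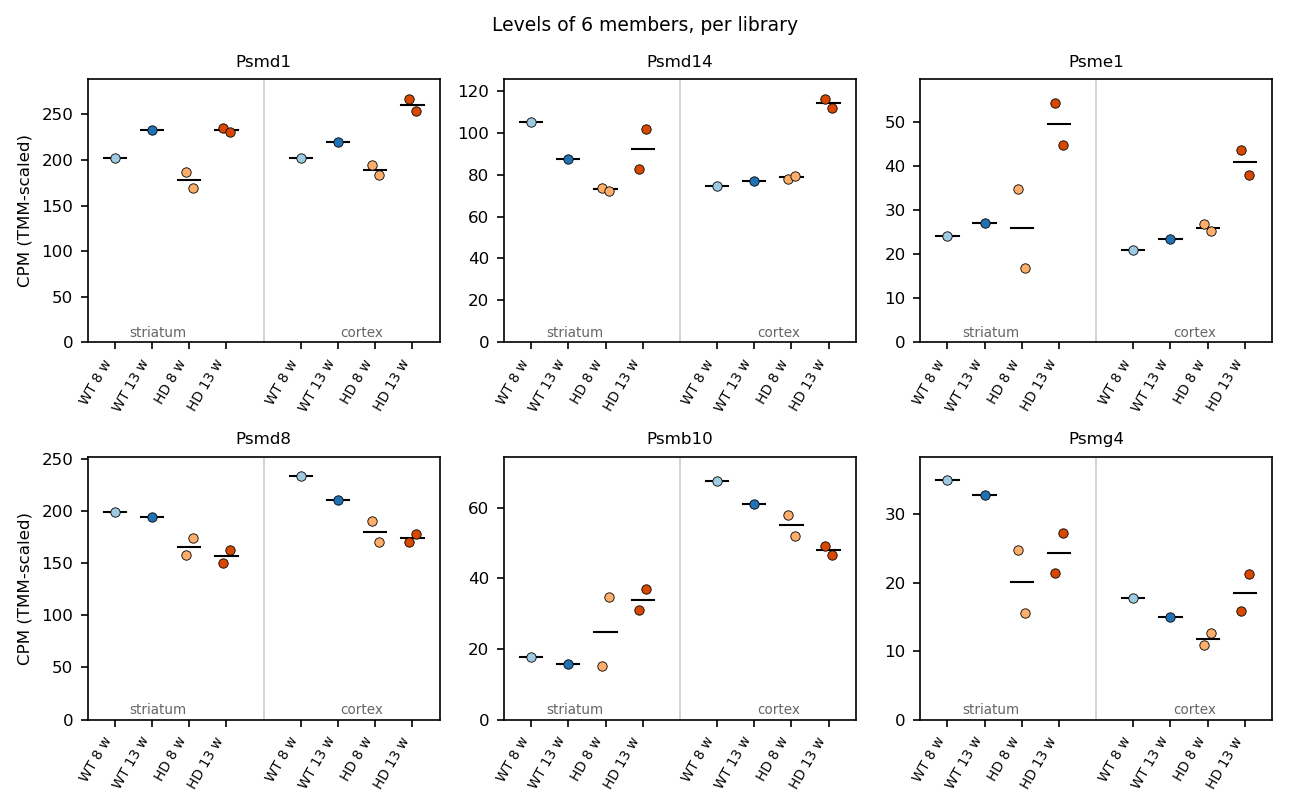
TMM-scaled CPM in each library (y axis, from 0) of the 6 genes Psmd1, Psmd14, Psme1, Psmd8, Psmb10 and Psmg4, by genotype and age in weeks, with striatum left and cortex right in each panel. Points are libraries and bars are group means. Psmd1, Psmd14 and Psme1 are higher in each HD library at 13 weeks than in any HD library at 8 weeks of the same region, and Psmb10 is lowest in WT striatum and 1 HD striatum library at 8 weeks.

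Other genes came close without passing. Psme2b, a copy of PA28β, had a log2 fold change of 0.52 ± 0.14 (SE, adjusted p = 0.0505), Psmc6, an ATPase of the 19S base, 0.40 ± 0.11 (adjusted p = 0.0525), and Psma1, an α-ring subunit, 0.43 ± 0.12 (adjusted p = 0.0646). Psmg4, a chaperone of the α ring, had 0.48 ± 0.20 (adjusted p = 0.194). The largest negative values among genes above 5 CPM were −0.37 for Psme4, the PA200 activator, −0.20 for Psmf1, the inhibitor PI31, and −0.10 for Psmd6, with adjusted p of 0.30, 0.547 and 0.706. Psme2 and Psme2b have 3′ ends that are 99% identical, so the division of reads between them is uncertain. Altogether 12 of the 48 genes had an unadjusted p under 0.05, all with positive values. Among all genes tested, 9.43% had an unadjusted p under 0.05 with a positive value and 13.1% with a negative one.

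To show the DNA in front of proteasome genes, promoters were read from RefSeq, which held 42 of the 50 genes in GRCm38.p6, the same assembly as mm10. The core of the antioxidant response element, TGACNNNGC on either strand, to which Nrf1 and Nrf2 bind as partners of small Maf proteins, was found within the 250 upstream bases of 5 of 42 proteasome genes (11.9%), which were Psmb5, Psmb6, Psmc6, Psmd12 and Psmd9. It was found in 11.5% of 27025 genes. The core of the interferon-stimulated response element, GAAA, any 2 bases and GAAA on either strand, was found in 3 of 42 (7.14%), which were Psmb3, Psmd4 and Psmd9, and in 3.46% of all genes. Psmd1, Psmd14 and Psme1, the genes called between HD stages, held neither core. The promoters of Psmc6 and Psmb6 are given as 2 that hold the antioxidant core, in capitals. That of Psmd14 is given as one that was called between HD stages and holds neither. Psmc6 did not pass the test between HD stages, and Psmb6 was called only between regions. The core begins at position -227 of Psmc6 and -9 of Psmb6, counted back from the RefSeq start, with that of Psmc6 on the opposite strand. The sequence of Psmc6 is printed to 36 bases before that start, where the first annotated exon begins, and the other two reach it. They lie on the plus strand at chr14:45329574-45329787, chr11:70525107-70525356 and chr2:61711444-61711693.
Psmc6: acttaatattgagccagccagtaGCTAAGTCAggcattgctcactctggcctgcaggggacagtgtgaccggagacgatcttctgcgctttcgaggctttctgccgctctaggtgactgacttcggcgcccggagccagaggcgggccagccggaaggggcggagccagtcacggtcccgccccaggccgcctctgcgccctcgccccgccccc
Psmb6: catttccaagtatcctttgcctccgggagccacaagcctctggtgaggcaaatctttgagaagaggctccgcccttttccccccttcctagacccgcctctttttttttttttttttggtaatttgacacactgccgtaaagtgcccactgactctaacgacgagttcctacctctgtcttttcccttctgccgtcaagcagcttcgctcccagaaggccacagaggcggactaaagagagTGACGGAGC
Psmd14: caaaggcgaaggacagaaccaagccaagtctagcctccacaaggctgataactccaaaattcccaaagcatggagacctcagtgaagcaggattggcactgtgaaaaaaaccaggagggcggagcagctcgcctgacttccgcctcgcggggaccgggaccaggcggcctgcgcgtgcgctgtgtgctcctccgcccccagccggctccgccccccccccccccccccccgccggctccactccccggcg

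By class, all 7 β-ring subunits, all 6 ATPases and all 7 assembly chaperones had positive values, with medians of 0.15, 0.21 and 0.30. The α ring had 6 of 7 positive with a median of 0.10, the non-ATPase subunits 8 of 11 with a median of 0.13, and the activators and inhibitors 4 of 6 with a median of 0.28. The catalytic subunits Psmb5, Psmb6 and Psmb7, which cut after hydrophobic, acidic and basic residues, had 0.15, 0.14 and 0.18, with adjusted p of 0.408, 0.436 and 0.436. Within a region, the libraries of the 2 HD stages did not overlap in either region for 14 of 48 genes, all higher after onset, and for no gene lower. Among all genes tested, 9.35% were higher and 11.3% lower in this way.

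The size of the shift depended on scaling. TMM factors were 0.89 to 0.98 in HD libraries at 8 weeks and 1.04 to 1.11 at 13 weeks. With plain library totals, the median over all genes tested moved to 0.19 and that of the proteasome genes to 0.38, so the distance between them was 0.19 rather than the 0.17 found with TMM on the same ratios. With plain totals 17 of the 48 proteasome genes were called, all higher, and of all genes tested 8.78% were called higher and 2.94% lower, so the share called higher rose for both.

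Neither region alone gave a call. In HD striatum 41 of 49 genes had positive values with a median of 0.15, none was called by edgeR or DESeq2, and 0.16% of all genes tested were called, 0.0139% higher and 0.146% lower. There 6 of the 49 had an unadjusted p under 0.05, all higher, against 5.15% of all genes higher and 7.86% lower. In HD cortex 41 of 49 were positive with a median of 0.19, none was called by either tool, and 0.591% of all genes were called, 0.0347% higher and 0.556% lower. There 5 had an unadjusted p under 0.05, all higher, against 5.17% of all genes higher and 9.15% lower. Among genes above 5 CPM, Psme1 had the largest value in striatum, 0.98 ± 0.30 (SE), followed by Psmd10, a chaperone of the 19S base, with 0.55 ± 0.20. In cortex Psmg4 had 0.65 ± 0.29, Psme1 0.64 ± 0.30 and Psme2b 0.61 ± 0.20. The difference between the regions in the stage change was called for no proteasome gene by edgeR or DESeq2, and 0% of all genes were called. None of the 49 had an unadjusted p under 0.05, against 2.13% of all genes with a larger change in striatum and 1.48% with a larger one in cortex.

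Psmb10, the β2i subunit of the immunoproteasome, differed between the HD striatum libraries at 8 weeks. It had 15.2 and 34.6 CPM in HD striatum at 8 weeks, 30.9 and 37.0 CPM at 13 weeks, and 17.9 and 15.6 CPM in WT striatum at 8 and 13 weeks. In cortex it had 58.0 and 52.0 CPM in HD mice at 8 weeks, 49.1 and 46.7 CPM at 13 weeks, and 67.5 and 61.1 CPM in WT mice. The first HD striatum library at 8 weeks was thus near WT striatum, and the second, which held the oligodendrocyte and thalamus transcripts, was near HD striatum at 13 weeks. With all libraries, the striatal stage change was 0.47 ± 0.34 (SE, adjusted p = 0.614). Without the second library, it was 1.17 and its difference from cortex was 1.35, with 1 HD striatum library at 8 weeks then left. Over the 14 alternative fits, the striatal stage change ran from −0.013 to 1.17. Its difference from cortex ran from 0.19 to 1.35 over these fits. Relative to Psmb7, the constitutive subunit that Psmb10 replaces, Psmb10 was 17.5% and 31.0% in HD striatum at 8 weeks, 30.7% and 35.9% at 13 weeks, and 14.3% and 13.7% in WT striatum.

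At 13 weeks, no proteasome gene passed the test between HD and WT mice by edgeR, although 7.36% of all genes did, 3.1% higher and 4.26% lower. DESeq2 called 2 of them, Psme1 and Psmd9, and 6 of 49 had an unadjusted p under 0.05 by edgeR, 5 of them higher in HD. Of all genes tested, 10.2% were higher and 12.1% lower at an unadjusted p under 0.05, so the proteasome genes were at the share of all genes on the higher side and under it on the lower. The median was 0.07, with 31 of 49 positive, against 0.01 over all genes tested. Psme1 had the largest value among genes above 5 CPM, at 0.84 ± 0.24 (SE, adjusted p = 0.0568). Its adjusted p was 0.00436 without the second HD striatum library at 8 weeks and 0.352 without the WT striatum library at 13 weeks. Psmd9, a chaperone of the 19S base, had 0.56 ± 0.18 (adjusted p = 0.0740), with 24.1 to 29.7 CPM in HD mice at 13 weeks and 16.9 and 20.1 CPM in WT mice. Psmb8, the β5i subunit, had 3.45 to 8.12 CPM in HD mice and 2.67 and 2.62 CPM in WT mice, at 1.07 ± 0.45 (adjusted p = 0.18). Psmb2, the β4 subunit, had 0.47 ± 0.24 (adjusted p = 0.286). On the negative side, among genes above 5 CPM, Psmd8 had −0.29 ± 0.12, Psmc5 −0.26 ± 0.15 and Psmb1 −0.26 ± 0.12, with adjusted p of 0.16, 0.338 and 0.247.

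**Figure D3:**
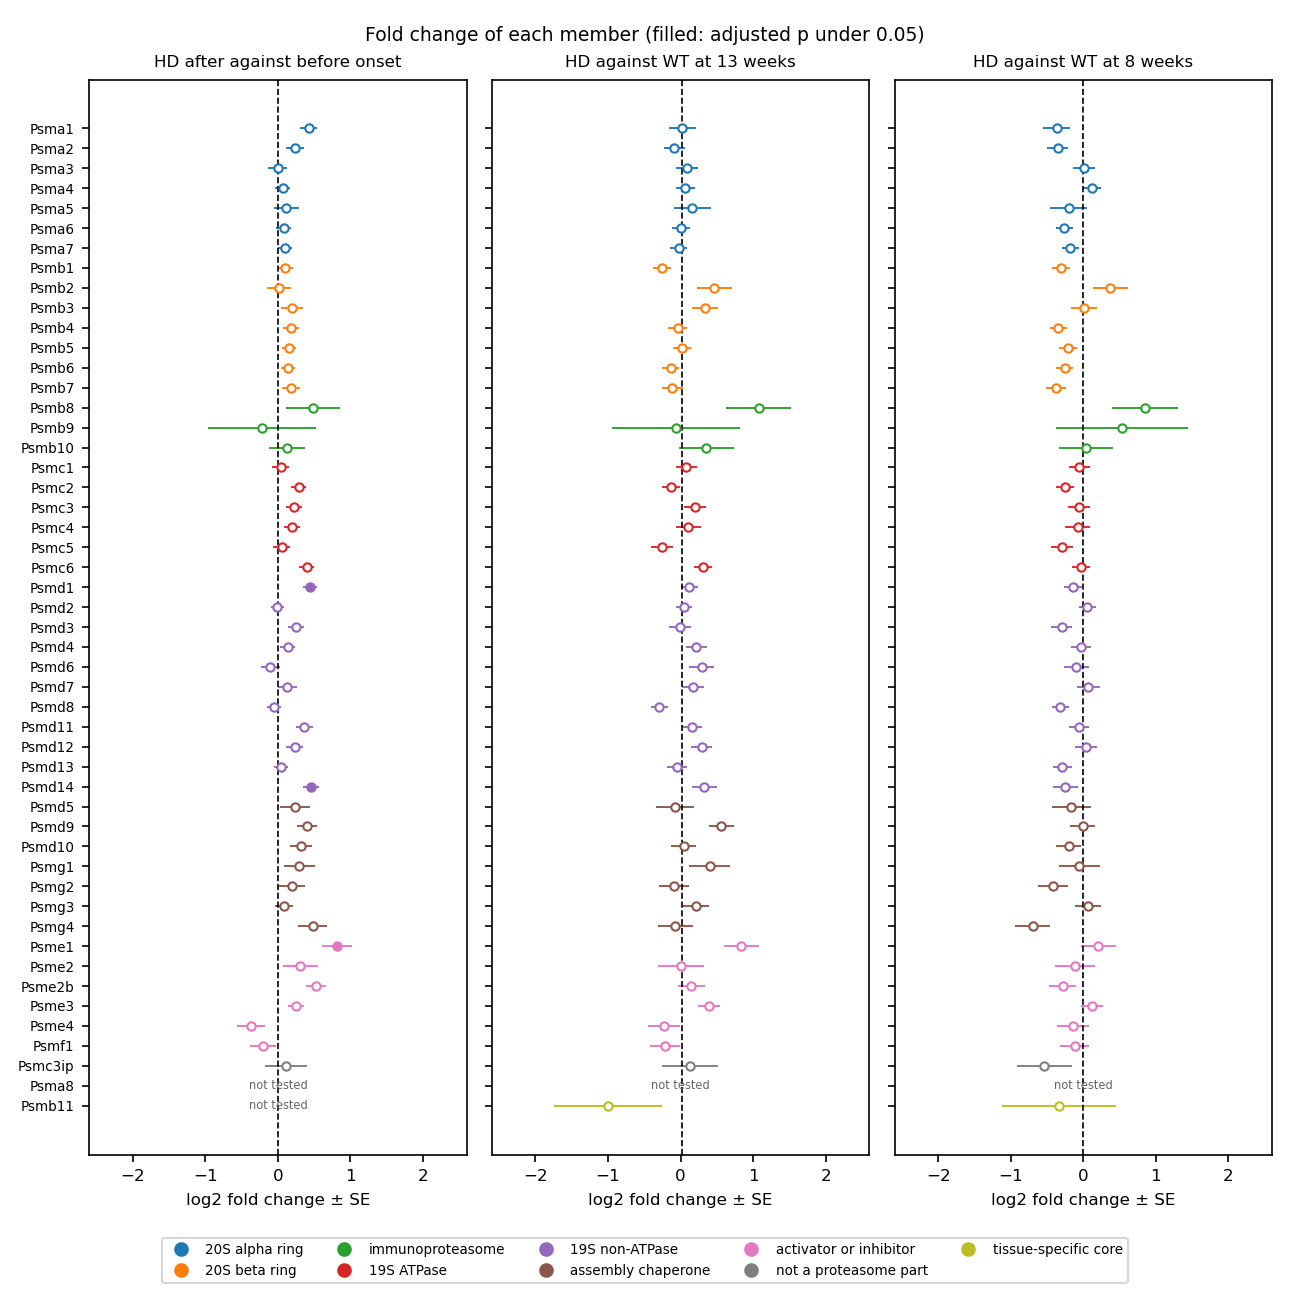
Log2 fold change with its standard error (x axis) of each of the 50 genes (y axis, coloured by class) in 3 comparisons, with filled points for an adjusted p under 0.05 and a dashed line at the median of all genes tested. Of the genes tested, 41 lie right of 0 for HD after against before onset, 31 for HD against WT at 13 weeks and 13 for HD against WT at 8 weeks. The comparisons share HD libraries.

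At 13 weeks, HD libraries did not overlap the WT library of their region, in either region, for 10 of 49 genes on the higher side and 6 on the lower side. Over all genes, 21.4% were higher and 22.6% lower in this way. The higher ones included Psme1, Psme3, Psmc6, Psmd9 and Psmb8, and the lower ones Psmb1, Psmb6, Psmc5 and Psmd8. The direction of the core rings depended on scaling, with a mean log2 ratio of the summed β ring of −0.08 with TMM, 0.0038 with plain totals and 0.13 without Rn45s in the total. The summed activators and inhibitors were at 0.23, 0.32 and 0.44 under these scalings.

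At 8 weeks, before symptoms, most proteasome genes had lower levels in HD than in WT mice, but none passed the test by edgeR or DESeq2. Of 49 genes, 13 were positive and 36 negative, with a median of −0.14 against −0.01 over all genes tested, of which 2.1% were called, 1.95% higher and 0.15% lower. By edgeR, 7 had an unadjusted p under 0.05, all lower in HD, and 4 of these were β-ring subunits. Of all genes tested, 5.11% were lower and 8.81% higher at this threshold. The 4 were Psmb4 at −0.34 ± 0.12 (SE), the trypsin-like Psmb7 at −0.37 ± 0.14, Psmb1 at −0.31 ± 0.12 and the caspase-like Psmb6 at −0.26 ± 0.12, with adjusted p between 0.226 and 0.353. Psmb7 had 87.2 and 112 CPM in HD striatum and 102 and 96.9 CPM in HD cortex, against 125 and 132.5 CPM in WT striatum and cortex. Psmb4 had 164 and 163 CPM in HD striatum and 178 and 143 CPM in HD cortex, against 203 and 209 CPM in WT. For both genes each HD library was under the WT library of its region.

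The largest negative value was −0.70 ± 0.24 (adjusted p = 0.204) for Psmg4, followed by Psmc3ip at −0.54 ± 0.38 and Psmg2, a chaperone of the α ring, at −0.42 ± 0.21. The largest positive values among genes above 5 CPM were 0.37 ± 0.24 for Psmb2, 0.21 ± 0.24 for Psme1 and 0.12 ± 0.13 for Psma4. The 3 immunoproteasome subunits had positive values, 0.85 ± 0.46 for Psmb8, 0.53 ± 0.91 for Psmb9 and 0.04 ± 0.37 for Psmb10. Both HD libraries lay under WT in each region for 16 of 49 genes, and above WT for Psmb8 alone. Over all genes, 15.1% were lower and 15.4% higher in this way. With plain library totals the median over all genes was −0.12 and that of the proteasome genes −0.25. Each WT age and region had 1 library, so no spread among WT mice of 1 age and region enters these tests.

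Over both ages, Psmd8 was the only proteasome gene called between HD and WT mice, while 10.7% of all genes were called, 6.18% higher and 4.51% lower. Psmd8 encodes Rpn12, a subunit of the 19S lid, and lies at chr7:29174188-29180701 on the minus strand. It had 157 and 174 CPM in HD striatum at 8 weeks, 149.9 and 163 CPM at 13 weeks, and 199 and 194 CPM in WT striatum. In cortex it had 190.0 and 170.2 CPM in HD mice at 8 weeks, 170.1 and 178 CPM at 13 weeks, and 233 and 210.4 CPM in WT mice. Each HD library was under both WT libraries of its region. The log2 fold change was −0.31 ± 0.083 (SE), with an adjusted p of 0.0344 by edgeR. The call was lost with the replicate number as a block (−0.33, adjusted p = 0.0663), without a filter on low counts (adjusted p = 0.0597), and without the first HD striatum or cortex library at 13 weeks, either HD cortex library at 8 weeks or any one WT library. The log2 fold change stayed between −0.33 and −0.28, and without the second HD cortex library at 13 weeks the adjusted p lay just under the threshold. In each HD group the replicate number ran with sex as Xist and Ddx3y gave it. Psmb1 had −0.28 ± 0.088 (adjusted p = 0.0596), Psme1 0.52 ± 0.17 (adjusted p = 0.0724) and Psmb8 0.96 ± 0.32 (adjusted p = 0.0776), and DESeq2 called these 3 and Psmd8.

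**Figure D4:**
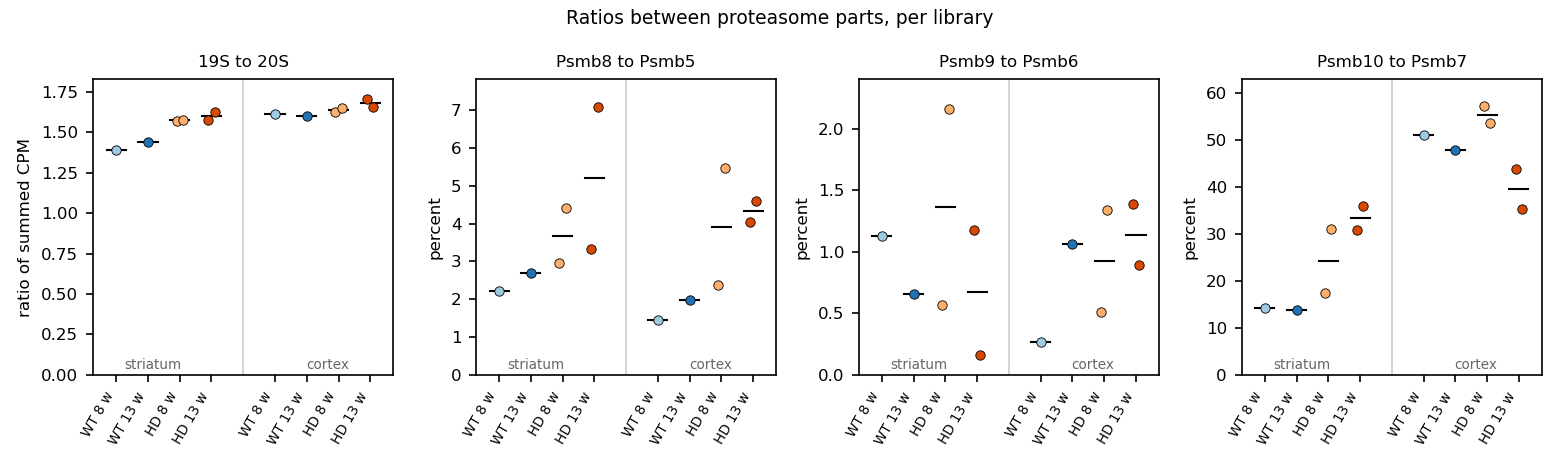
Ratio of summed 19S to summed 20S CPM, and the level of each immunoproteasome subunit in percent of the constitutive subunit it replaces, per library (y axes, from 0), by genotype and age in weeks, with striatum left and cortex right. Points are libraries and bars are group means. Psmb10 in percent of Psmb7 is 13.7% to 14.3% in WT striatum and 47.8% to 51.0% in WT cortex.

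Against their constitutive partners, the other immunoproteasome subunits were scarce. Psmb8 was 1.46% to 2.69% of Psmb5 in WT libraries and 2.36% to 7.10% in HD libraries, and Psmb9 was 0.159% to 2.16% of Psmb6 over all libraries. In cortex Psmb10 was at 35.2% to 57.1% of Psmb7.

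The age change in WT mice and its difference from that in HD mice gave no called proteasome gene. In WT mice the median was −0.06 with 18 of 49 positive, none was called by edgeR or DESeq2, and 1 gene, Psmd6 at −0.50 ± 0.20 (SE), had an unadjusted p under 0.05. Of all genes, 0.0136% were called, 0.0068% higher and 0.0068% lower, and 0.932% were higher and 0.884% lower at an unadjusted p under 0.05. For the change in HD less that in WT, the median was 0.24 with 43 of 49 positive, against −0.01 over all genes, of which 0.116% were called, 0.0136% higher and 0.102% lower. None was called by edgeR or DESeq2, and the 2 with an unadjusted p under 0.05 were Psmd14 at 0.57 ± 0.24 and Psmd9 at 0.57 ± 0.24, with adjusted p of 0.497 and 0.50, against 2.99% of all genes with a positive and 5.93% with a negative value at that threshold.

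Between regions, 5 proteasome genes passed the test over all 12 libraries, while 20.6% of all genes did, 8.51% higher and 12.1% lower in striatum. Psmb10 was lower in striatum than in cortex by the values given above, with a log2 fold change of −1.19 ± 0.25 (SE, adjusted p = 0.00706 by edgeR). Psmb10 lies at chr8:105935735-105938444 on the minus strand. Psmg4, the PAC4 chaperone at chr13:34162964-34178173 on the plus strand, was higher in striatum by 0.74 ± 0.17 (adjusted p = 0.00754). It had 24.7 and 15.5 CPM in HD striatum at 8 weeks, 21.4 and 27.2 CPM at 13 weeks, and 34.9 and 32.8 CPM in WT striatum, against 10.9 and 12.6, 15.9 and 21.2, and 17.7 and 15.0 CPM in the matching cortex libraries. The calls for Psmb10 and Psmg4 held in each of 18 alternative fits at the same threshold.

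The remaining regional differences were small. Psmb6 was higher in striatum by 0.26 ± 0.079, with 119 to 145 CPM in striatum and 97.4 to 129 CPM in cortex (adjusted p = 0.0346). Psmc3, the Rpt5 ATPase, had −0.31 ± 0.10 (adjusted p = 0.0453), with 147 to 214 CPM in striatum and 179 to 232.5 CPM in cortex. Psmf1 had −0.41 ± 0.14 (adjusted p = 0.0475), with 21.9 to 34.7 CPM in striatum and 29.7 to 45.1 CPM in cortex. The ranges of the regions overlapped for these 3 genes, as they did for Psmg4 but not for Psmb10. Psmb6, Psmc3 and Psmf1 passed in 8, 5 and 6 of the 18 alternative fits. All 6 ATPases had negative values, with a median of −0.13. Slc39a13, which overlaps the 3′ end of Psmc3 on the other strand, had 0.18, and Slc22a23, which ends near Psmg4, had 0.11.

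Genes that work with the proteasome but lie outside the symbol rule were examined as lists. Among 17 partners tested, none was called between HD stages by edgeR, 2 had an unadjusted p under 0.05, and the median was 0.08. Pomp, the maturation factor that the 20S core consumes during assembly, was lower in HD than WT mice at 13 weeks by a log2 fold change of −0.56 ± 0.14 (adjusted p = 0.0347), with 431 to 502 CPM against 623 and 774 CPM. AI314180, the mouse gene for the proteasome adaptor ECM29, was higher at 13 weeks by 0.72 ± 0.17 (adjusted p = 0.0226), with 52.9 to 58.7 CPM against 35.0 and 32.3 CPM, and at 8 weeks by 0.96 ± 0.17 (adjusted p = 0.0149). Each HD library at each age was below the WT libraries for Pomp and above them for AI314180.

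Among 10 genes that regulate proteasome transcription, Foxo4 was higher in HD mice after onset than before by 0.85 ± 0.14 (adjusted p = 0.0110) and than in WT mice at 13 weeks by 0.84 ± 0.20 (adjusted p = 0.0270). Nfe2l2, which encodes the oxidative stress factor Nrf2, was higher in HD than WT mice at 13 weeks by 0.91 ± 0.24 (adjusted p = 0.0383) and at 8 weeks by 1.20 ± 0.25 (adjusted p = 0.0287). Nfe2l1, whose product drives proteasome genes when proteasome activity is low, had 122 to 188 CPM in HD mice at 13 weeks, 161 to 202 CPM at 8 weeks and 159 to 182 CPM in WT mice, which overlap. Of 14 antigen presentation and interferon genes tested, all had positive values between HD stages, with a median of 0.55, and 2 were called, Irf9 at 1.01 ± 0.23 (adjusted p = 0.0343) and Ifit3 at 1.09 ± 0.27 (adjusted p = 0.0420). In WT mice, 10 of the 14 were positive at 13 against 8 weeks, with a median of 0.28 and no call. At 13 weeks the MHC class I genes H2-D1 and H2-K1 were higher in HD than WT mice by 1.38 ± 0.37 and 1.30 ± 0.36 (adjusted p = 0.0462 and 0.0476). H2-K1 was also called at 8 weeks, before symptoms, as higher in HD than WT mice by 1.67. The 8 microglia markers summed to 280 to 494 CPM in HD mice at 13 weeks, 392 to 511 CPM at 8 weeks and 410.2 to 488 CPM in WT mice, each with a count in every library, and their part in the Psme1, Psmb8 and antigen presentation values was not tested.

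Of 12 genes for ubiquitin supply and the p97 segregase tested, Faf1, a p97 cofactor, was higher after onset by 0.71 ± 0.15 (adjusted p = 0.0235), and Ubxn1, another, was higher in HD than WT mice at 13 weeks by 0.66 ± 0.17 (adjusted p = 0.0381). Rps27a, a ubiquitin fused to a ribosomal protein, was lower in HD than WT mice at 8 weeks, with a log2 fold change of −0.58 ± 0.13 (adjusted p = 0.0449).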

How the data were processed

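The authors deposited 1 table of counts per library, with the number of reads on each gene symbol and no normalization. The submitters' processing notes name Bowtie2, bedtools and mm10, and the counting rule and its use of strand are not given in the sources used here. Of 23282 gene rows, 4306 had no count in any library, 44 repeated an earlier symbol, and none was blank. Replicates of each HD group differed beyond counting noise (chi-square per degree of freedom of 6.98 to 73).

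From these counts, edgeR 4.0.16 in R 4.3.3 gave log2 fold changes (quasi-likelihood test with robust estimates, TMM scaling, genes kept by filterByExpr at a count of 10 or more, Benjamini-Hochberg threshold of 0.05 over all genes tested). Fits of HD stages held the 8 libraries of HD mice and were adjusted for region, or made by region, and the other fits held all 12 libraries. The 2 libraries of each HD group differed in sex by Xist and Ddx3y, so they were not from 1 mouse. Whether striatum and cortex libraries shared a mouse is not stated, so p-values measure the spread between these libraries. Permutations used log2(CPM + 1). Lists were described by counts and medians without a set test. Alternatives were DESeq2 1.42.0, upper-quartile scaling, no filter, at least 1 CPM in every library, a threshold of 0.01, each library left out, a replicate block and voom with a random block (limma 3.58.1). Plain library totals and the interferon motif were added after the data were seen. The tests were also run on simulated counts, drawn independently for each library with a fixed dispersion for all genes. These runs do not cover shared mice, sex or an outlying library.

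The genes, lists and tests were chosen with earlier results of these data known. Genes were named if called in any comparison, if catalytic or an immune counterpart, if among the 3 largest increases or decreases above 5 CPM, if highest or lowest of their class, or if they failed the filter, and up to 4 of each other list by smallest p. Others near the threshold, Rn45s, overlapping genes, Xist, Ddx3y, Drd2, Nfe2l1, Psmb4 and the genes of the non-overlap and motif counts were named after their values were seen. Gene positions came from GENCODE M21.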

Additional observations from a re-analysis of the deposited data

Results flagged for a closer look

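Among the genes called in any comparison, the catalytic subunits with their immunoproteasome counterparts, and the class sums, each with a mean of at least 5 CPM, 7 values had both HD libraries above the WT library in one region and both below it in the other. The difference between regions was not tested in any of these cases, since WT mice had 1 library for each region and age. Such opposite positions occurred for 14.8% of 10777 genes at 13 weeks and for 8 of 46 proteasome genes (17.4%), and at 8 weeks for 19.3% of genes and for 12 of 46 (26.1%). The 5 other proteasome genes at 13 weeks had regional differences of 0.135 to 0.775 in size and the 10 others at 8 weeks of 0.285 to 1.14, the largest for Psmb2.

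At 13 weeks, the log2 ratio of HD to WT for Psmb10 was 1.12 in striatum and −0.35 in cortex, a difference of 1.47. For the summed immunoproteasome subunits, which Psmb10 dominates, the ratios were 1.08 and −0.25, a difference of 1.33. Psmg4 had −0.43 in striatum and 0.31 in cortex, a difference of −0.74. Psmb5, the chymotrypsin-like subunit, had 0.14 and −0.09, a difference of 0.22.

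At 8 weeks, Psmd14 had −0.53 in striatum and 0.07 in cortex, a difference of −0.60. Psmc3 had 0.20 and −0.31, a difference of 0.51. The summed 19S ATPases had 0.03 and −0.29, a difference of 0.32. The striatal values at 8 weeks include the library with many oligodendrocyte transcripts, whose part in them was not tested.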

How the results depend on the processing

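The 3 proteasome genes called between HD stages were 6 with DESeq2, 6 with upper-quartile scaling, 5 at 1 CPM in every library, 17 with plain totals, 0 at a threshold of 0.01, and 0 to 4 with a library left out. At 13 weeks the count of 0 against WT was 2 with DESeq2, 1 with upper-quartile scaling, 1 without a filter, 2 with plain totals and 0 to 1 with a library left out. Over both ages the 1 call was 4 with DESeq2, 2 at 1 CPM, 2 with plain totals, 0 without a filter, 0 at 0.01, and 0 to 3 with a library left out. The 5 regional calls were 3 with upper-quartile scaling, no filter, 1 CPM or plain totals, 2 at 0.01 and 2 to 5 with a library left out. With a library left out, the counts of 0 were 0 to 1 in HD striatum, 0 to 3 in HD cortex and 0 to 1 for their difference, and the calls came without 1 of the HD striatum libraries at 8 weeks. Counts at 8 weeks, for WT age and for the change in HD less that in WT stayed at 0 in all 19 alternatives. The cause of these changes was not tested.

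The summed level of the 50 genes had log2 ratios of 0.15 between HD stages (0.37 with plain totals, 0.36 without Rn45s, 0.13 to 0.18 with a library left out), 0.04 against WT at 13 weeks (in the same order 0.12, 0.25, 0.01 to 0.06) and −0.16 at 8 weeks (−0.29, −0.15, −0.23 to −0.076).

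Same-numbered libraries deviated together weakly (correlations of 0.00582 to 0.196 between HD groups). The largest was between ages, which cannot share a mouse. Between striatum and cortex of the same age, the correlations were 0.168 after onset and 0.0973 before it. Same-numbered striatum and cortex libraries of HD mice also matched in sex by Xist and Ddx3y. These values cannot decide whether such libraries shared a mouse. The main fits did not use the numbers as pairs, and a shared mouse was not excluded. With the number as a replicate block, 3 genes were called between HD stages, 5 between regions, 1 at 13 weeks (Psme1 at 1.03, adjusted p = 0.0219) and 1 over both ages (Psme1 in place of Psmd8). Voom with a random block called 2 between HD stages.

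Depth limits the genes with few reads, since Psmb9, Psmb11 and Psma8 had as few as 2, 2 and 1 counts in a library.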
